A study of Bos taurus with 43 samples.

Results

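The 19 cows described here had a blood progesterone (P4) label of 0.85 or higher, out of 43 cows in the series, and the comparison is between the 14 that later became pregnant and the 5 that did not. All were multiparous Angus x Brahman cows with synchronized estrus, and each was sampled by cytology brush in the uterine lumen on day 4 after the final GnRH injection, and bled for P4 the same day. Each cow received a single in vitro-produced embryo on day 7, and pregnancy was checked around day 30. Poly-A RNA of each brush sample was sequenced as 1 library, so the profiles precede any embryo. The other 24 cows, 11 pregnant and 13 nonpregnant with P4 labels under 0.85, serve for comparison with the high P4 cows. They also enter the fits over all 43 cows, including the fit that chose the genes associated with P4.

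Progesterone is the steroid of the corpus luteum. It acts on the endometrium through the progesterone receptor, remodels the epithelium, and governs the secretions that feed the embryo before it attaches. In cattle an early or strong rise of progesterone after ovulation is known to advance growth of the conceptus. Comparing outcomes among cows that already had high P4 asks whether the lumen differed by outcome within that class. P4 still varied within it, so only a fit with P4 in the model compares outcomes at equal P4. The labels give no unit for P4.

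The 14 pregnant cows had P4 labels from 0.86 to 1.81 with a median of 0.995. The 5 nonpregnant cows had labels of 0.87, 1.20, 1.71 and 1.46 in the first round of synchronization (block 1) and 1.88 in the second (block 2). P4 was thus on average higher in the nonpregnant cows of this class, with geometric means of 1.09 in pregnant and 1.37 in nonpregnant cows (SD on the log2 scale 0.36 and 0.44). The limit of 0.85 chose the cows, so these values are a description. The cows just inside it had labels of 0.86, 0.86 and 0.87, and the cows just outside had 0.80 and 0.77. Of the high P4 cows 73.7% were pregnant (14 of 19; 95% Wilson interval 51.2% to 88.2%), against 45.8% of the low P4 cows (11 of 24; 27.9% to 64.9%). Among low P4 cows the order of P4 was the opposite, with geometric means of 0.551 in pregnant and 0.435 in nonpregnant cows. Outcome and block were unevenly crossed among the high P4 cows. Block 1 held 5 pregnant and 4 nonpregnant cows, and block 2 held 9 pregnant and 1 nonpregnant cow.

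**Figure D1:**
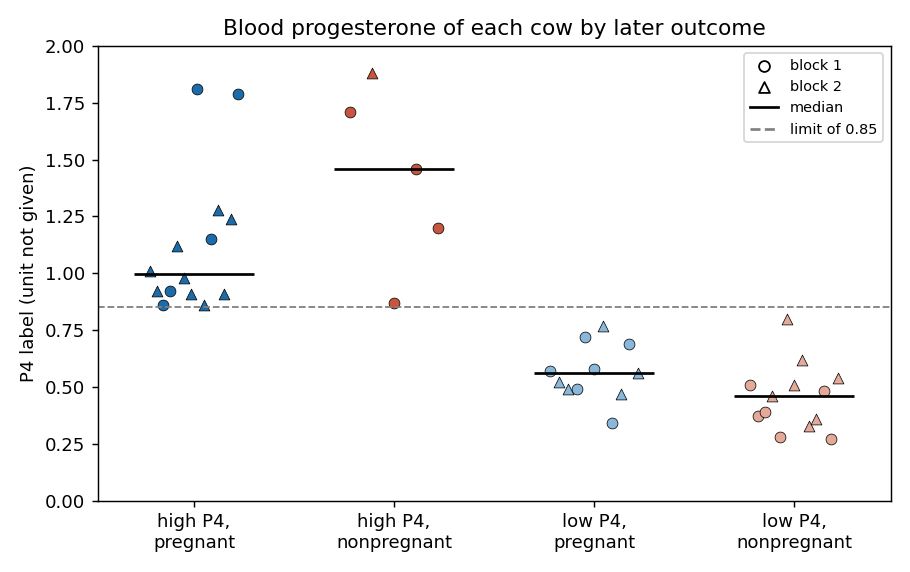
P4 label of each of the 43 cows (vertical axis, unit not given) by P4 class and later outcome. Circles are block 1, triangles are block 2, bars are group medians and the dashed line is the limit of 0.85. The 5 nonpregnant high P4 cows have a median of 1.46, above the median of 0.995 of the 14 pregnant ones, and only 1 of the 5 is from block 2.

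The files pair no gene identifier with a symbol, and 0 identifiers matched the gene table used here. Genes are therefore given by Ensembl identifier, without position or role, and the labelled tissue could not be checked against marker genes. Sequencing depth of the 19 libraries was 12563451 to 23572549 counts (median 15076330), and 16705 to 18807 genes were detected with 1 count or more. In bulk samples such as these, fewer cells of a type and less RNA per cell cannot be told apart. Cows are numbered within each outcome. Pregnant replicate 1 stood apart on the first principal component, with a score of -107 where the other 18 cows lay between -60.8 and 55.2. It also had the fewest genes detected (16705) and the lowest scaling factor (0.837). The share of counts taken by the 10 most abundant genes ran from 4.61% to 9.75% in pregnant and from 4.61% to 9.27% in nonpregnant cows.

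No library measure and none of the first 5 components passed a test between outcomes. Detected genes averaged 18017 ± 510.3 in pregnant and 18109 ± 537 in nonpregnant cows (SD, n = 14 and 5), with an exact permutation p of 0.658 when outcomes were reassigned within blocks (two-sided). Total counts, the share of the 10 most abundant genes and the scaling factor gave exact permutation p-values of 0.510, 0.404 and 0.551, and the lowest adjusted p over these 4 measures was 0.658. Variance of log2 CPM, the count scaled to library size, was split as 24.8%, 11.8%, 8.67%, 8.09% and 5.77% over the first 5 components. The fifth had the smallest p of these, with mean scores of 5.06 ± 18.3 in pregnant and -14.2 ± 20.9 in nonpregnant cows (SD), and did not pass (exact permutation p = 0.207, adjusted p = 0.583 over 5 components). Scores of the outcomes overlapped on all 5.

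**Figure D2:**
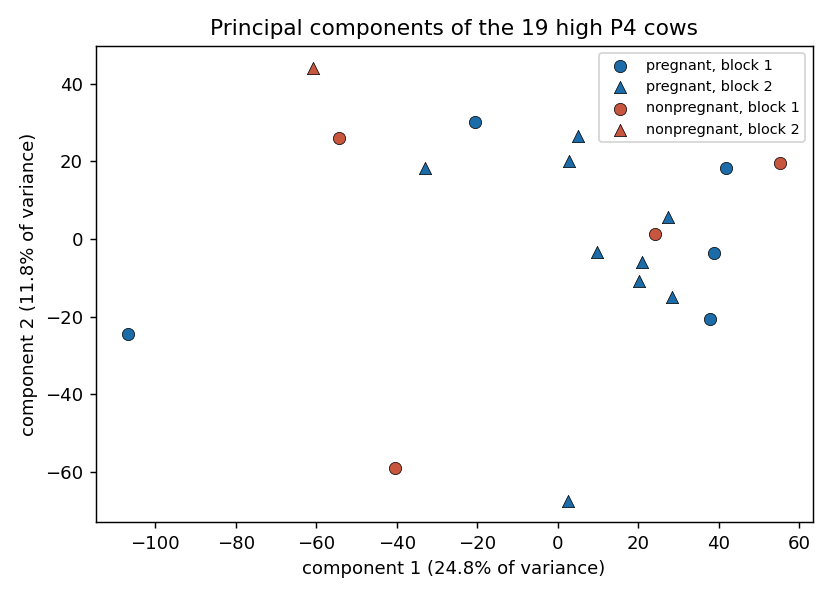
Scores of the 19 high P4 cows on the first principal component (horizontal) and the second (vertical) of log2 CPM, by outcome (colour) and block (shape). Pregnant and nonpregnant cows are intermixed, and pregnant replicate 1 lies alone at -107 on the first component.

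No gene passed the test between pregnant and nonpregnant cows of high P4. With block in the model, 0 of 15531 genes tested passed (0%; edgeR quasi-likelihood test, Benjamini-Hochberg adjusted p under 0.05, 14 against 5 cows), and the lowest adjusted p was 0.995. An unadjusted p under 0.05 was reached by 554 genes, which is 3.57% of those tested, where 777 would be reached with no difference and independent genes. Of the 554, 413 were higher in pregnant cows (2.66% of genes tested) and 141 lower (0.908%). The share higher was thus 74.5%. Over 16 other settings it ran from 50.6%, with all 43 cows in 1 fit, to 78.1%, with a P4 limit of 0.80. It was 59.4% within the P4 range that both outcomes shared. Limma voom also called 0 genes, with 1668 at an unadjusted p under 0.05, and DESeq2 called 1 gene, with 791. Leaving out 1 cow, edgeR called 0 genes each time, but the count at an unadjusted p under 0.05 moved by over 1.5 times for 7 cows. Removing pregnant replicate 1, 6 or 7 gave 1358, 314 or 909 such genes. Removing nonpregnant replicate 1, 3, 4 or 5 gave 1107, 299, 898 or 293. Without the 3 libraries whose 10 most abundant genes took over 8% of counts it again called 0, with 537.

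The size of an outcome difference was bounded more tightly for abundant genes. The 95% interval of the log2 fold change (pregnant over nonpregnant, taken gene by gene without adjustment) had a half-width of 0.53 at the median gene. Changes over 2-fold either way lay outside it for 66.8% of genes, and changes over 1.5-fold for 36.8%. When genes were ranked by level and split into 4 equal classes, the lowest class, at a median of 1.70 CPM, had 18.8% of intervals inside a 2-fold change. The highest class, at a median of 109 CPM, had 92.7% inside a 2-fold and 64.2% inside a 1.5-fold change. The 100 most abundant genes, from 1031 to 9889.9 CPM, had log2 fold changes from -0.48 to 1.01. Of these 100 genes, 77 were higher and 23 lower in pregnant cows, with a median of 0.12. Over all 15531 genes tested, 8088 were higher and 7443 lower, with a median of 0.01. An unadjusted p under 0.05 (edgeR) was reached by 2 of the 100, beside 3.57% of all genes tested. The 100 genes share libraries and are not independent.

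**Figure D3:**
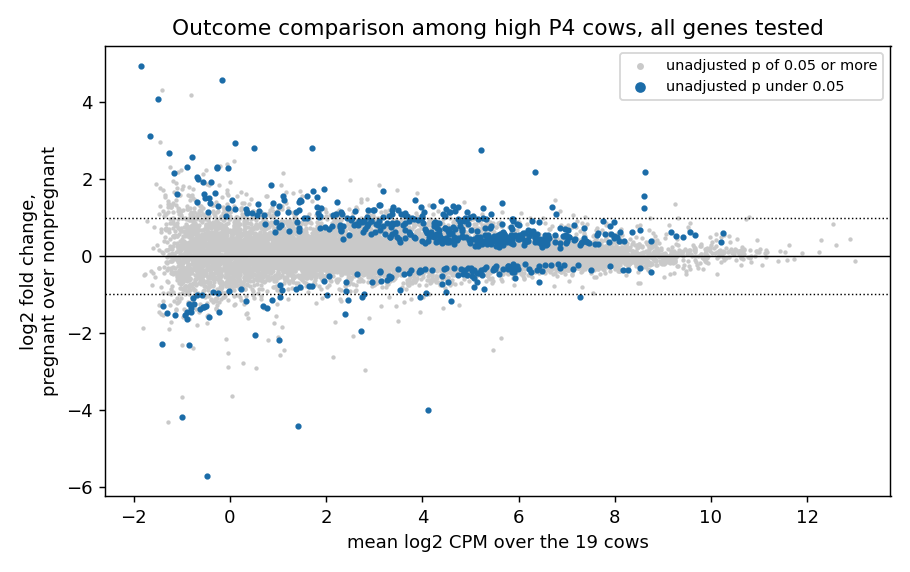
Log2 fold change of pregnant over nonpregnant cows (vertical) against mean log2 CPM over the 19 high P4 cows (horizontal) for all 15531 genes tested. Blue points are the 554 genes with an unadjusted p under 0.05 and dotted lines mark a 2-fold change. Folds spread most at low levels.

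Large fitted folds were found mainly in genes of low level. A fitted change beyond 2-fold was seen in 357 genes toward pregnant and 152 toward nonpregnant cows, with median levels of 2.15 and 1.41 CPM. The medians of the groups (with 0.5 CPM added) also differed by more than 2-fold the same way in 98 of the 357 and in 18 of the 152. A single cow held over 50% of its group's summed CPM in 19 of the 357 and in 68 of the 152. That group was the 14 pregnant cows for the 357 genes and the 5 nonpregnant cows for the 152. A share over 50% is reached more easily among 5 cows than among 14, so these counts cannot be compared.

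The named genes, those of smallest p per direction, are given as values of each cow, since none passed. ENSBTAG00000011133 had a lowest value of 37.9, a median of 57.6 and a highest of 69.3 CPM in the 14 pregnant cows, against 43.6, 39.3, 30.4, 54.4 and 40.0 CPM in nonpregnant replicates 1 to 5. All but 4 of the pregnant cows, 10 of 14, were above every nonpregnant cow, and the groups overlapped. The log2 fold change was 0.57 ± 0.14 (SE), or 1.48-fold, with a 95% interval of 0.28 to 0.85 (edgeR adjusted p = 0.995).

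ENSBTAG00000046273 had a lowest value of 20.1, a median of 25.9 and a highest of 33.0 CPM in pregnant cows, against 17.2, 12.5, 17.0, 19.3 and 18.3 CPM in nonpregnant replicates 1 to 5. Every pregnant cow was above every nonpregnant cow, and it was the 1 gene of 15531 with that pattern (0.00644%), while 0 genes (0%) were lower in every pregnant cow. Its log2 fold change was 0.64 ± 0.16 (SE; edgeR adjusted p = 0.995). The change in the low P4 cows was 0.08 ± 0.12 (SE; edgeR adjusted p = 1.00).

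In the other direction, ENSBTAG00000036099 had a lowest value of 1.90, a median of 4.29 and a highest of 8.95 CPM in pregnant cows, against 9.44, 7.44, 8.11, 7.80 and 13.4 CPM in nonpregnant replicates 1 to 5. Most pregnant cows, 12 of 14, were below every nonpregnant cow. The log2 fold change was -1.14 ± 0.31 (SE; edgeR adjusted p = 0.995). Without 1 cow it ran from -1.53 to -1.02, and it was -0.90 at a P4 limit of 1.00. The value of -1.53, without pregnant replicate 6, had the lowest adjusted p of the fits without 1 cow (edgeR, 0.123). ENSBTAG00000007117 had a lowest value of 22.9, a median of 33.4 and a highest of 50.8 CPM in pregnant cows, against 43.9, 36.6, 39.4, 38.0 and 48.8 CPM in nonpregnant replicates 1 to 5. The groups of this gene overlapped, at -0.45 ± 0.14 (log2, SE; edgeR adjusted p = 0.995), and -0.24 with no block term. With log2 P4 added to the model, the log2 fold changes of ENSBTAG00000011133, ENSBTAG00000046273, ENSBTAG00000036099 and ENSBTAG00000007117 were 0.59, 0.69, -1.06 and -0.54, and none passed (edgeR adjusted p = 0.999 each).

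**Figure D4:**
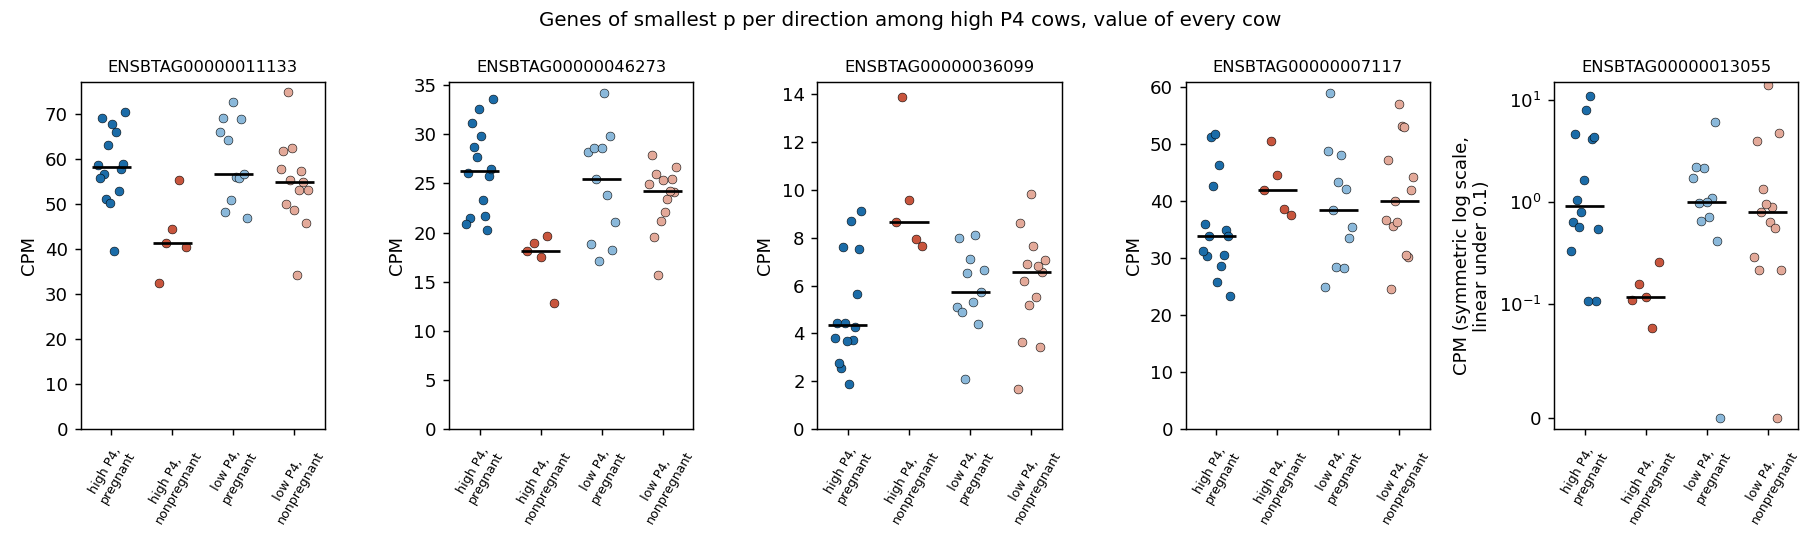
CPM of every cow (vertical, scaled over all 43 libraries) for the genes of smallest p with a mean log2 CPM of at least 0, limited to 2 in each direction, and for ENSBTAG00000013055, by P4 class and outcome, with bars at the medians. For ENSBTAG00000046273 the 5 nonpregnant high P4 cows lie below the 14 pregnant ones. For ENSBTAG00000011133 nonpregnant replicate 4 lies among the pregnant cows, at 55.3 CPM, and the other 4 lie between 32.5 and 44.3 CPM.

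ENSBTAG00000013055 had the smallest p of all genes but a mean level under the limit for naming among the 19 cows, and is shown because it was named in block 1. It had a lowest value of 0.104, a median of 0.908 and a highest of 10.6 CPM in pregnant cows, against 0.116, 0.251, 0.103, 0.0780 and 0.154 CPM in nonpregnant replicates 1 to 5. The nonpregnant values rested on 2, 3, 2, 1 and 3 counts, so the fold rests on very few counts in that group. All 5 were under the filter's minimum count of 10, so the gene was kept for testing only through pregnant cows. Calls of this gene are therefore a description. Above every nonpregnant cow were 12 of the 14 pregnant cows, and 1 pregnant cow exceeded 10 CPM. The log2 fold change was 4.57 ± 1.07 (SE), with a 95% interval of 2.34 to 6.80 (edgeR adjusted p = 0.995). DESeq2 gave 4.54 and called this gene alone (adjusted p = 0.0110), whereas limma voom estimated 3.44 (adjusted p = 0.423). The edgeR estimate was 3.05 when the limit was lowered to a P4 label of 0.80, which adds 1 nonpregnant cow. In low P4 cows the log2 fold change was -0.49 ± 0.74 (SE; edgeR adjusted p = 1.00), the medians being 1.00 CPM (pregnant) and 0.798 CPM (nonpregnant). The difference between the P4 classes was 4.71 ± 1.44 (SE) and did not pass (edgeR adjusted p = 0.999).

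Block 1, where both outcomes had replicates, gave the same count. Of 15531 genes 0 passed (0%; edgeR, 5 against 4 cows), and 158 (1.02%) had an unadjusted p under 0.05, 71 higher (0.457%) and 87 lower (0.56%) in pregnant cows. Without 1 cow the count ran from 114 to 258 and the share higher from 21.8% to 63.3%. It moved by over 1.5 times when pregnant replicate 1 or 7 was removed (251 or 253), and when nonpregnant replicate 3 or 4 was removed (238 or 258). Limma voom called 0 genes, with 313 at an unadjusted p under 0.05, and DESeq2 called ENSBTAG00000013055 alone (log2 fold change 5.20, adjusted p = 0.000411), with 224. The filter kept that gene only through pregnant cows. Precision was lower than with 19 cows, the median half-width being 0.76, and 53.7% of intervals lay inside a 2-fold change. All 5 pregnant cows were above all 4 nonpregnant cows in 32 genes (0.206%) and below them in 33 (0.212%).

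The abundant ENSBTAG00000055014 was among the 4 genes named in block 1. It had 249, 292, 351, 323 and 333 CPM in pregnant replicates 1, 2, 5, 6 and 7, against 181, 163, 191 and 235 CPM in nonpregnant replicates 1 to 4. These did not overlap in block 1 (log2 fold change 0.67 ± 0.19 SE; edgeR adjusted p = 1.00), but nonpregnant replicate 5 of block 2 had 231 CPM and pregnant cows of that block went down to 214 CPM. ENSBTAG00000001823 had 0.601, 0.778, 0.633, 0.626 and 0.301 CPM in the same pregnant cows, against 5.56, 1.84, 1.45 and 4.68 CPM in nonpregnant replicates 1 to 4. Its log2 fold change was -2.51 ± 0.53 (SE; edgeR adjusted p = 1.00), and pregnant replicate 11 of block 2 had 10.8 CPM. For ENSBTAG00000047121 the value of -5.17 ± 1.65 (log2, SE; edgeR adjusted p = 1.00) rested on nonpregnant replicate 2 with 238 CPM, and became -1.65 without that cow. In block 2 its estimate had the other sign, at 5.57 (log2). Pregnant cows there ran from 0 to 71.4 CPM, and nonpregnant replicate 5 had 0.307 CPM.

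In block 2 the only nonpregnant cow allows no test. Estimates of the 2 blocks correlated over genes, themselves no independent replicates, at -0.01 (Pearson) and 0.13 (Spearman), and 56.3% shared a sign. Without that cow 293 genes had an unadjusted p under 0.05, of which 53.6% were higher in pregnant cows, beside 74.5% with it.

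The outcome effect was then compared between high and low P4 cows. No gene passed the test of that difference (0 of 16353 called, 0%; edgeR interaction test with block, 43 cows), and 416 (2.54%) had an unadjusted p under 0.05, of which 273 (1.67%) were higher and 143 (0.874%) lower. That count was 904, 262 and 698 without nonpregnant replicates 1, 3 and 4 of high P4, and 1841 when the classes were divided at a P4 label of 1.00. DESeq2 and limma voom also called 0, with 506 and 676. The interval of the difference had a median half-width of 0.64. Among low P4 cows alone edgeR called 0 of 15531 genes (0%), with 130 (0.837%) at an unadjusted p under 0.05, of which 27 (0.174%) were higher and 103 (0.663%) lower in pregnant cows.

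The low P4 cows are separate animals, and their fold changes mostly had the other sign. Of the 554 genes with an unadjusted p under 0.05 among high P4 cows, 194 (35.0%) had the same sign among low P4 cows, beside 40.1% of all 15531 genes. The log2 fold changes of the classes had a Pearson correlation of -0.14 and a Spearman correlation of -0.23 across genes, which share libraries and are not independent.

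Genes named for the interaction were those of lowest p in either direction that reached the level limit for naming. Their outcome medians had opposite orders in the P4 classes (CPM scaled over all 43 libraries). They were chosen by the interaction test on the same cows, so these orders are a description. Below that limit among the 19 cows, ENSBTAG00000013055 had a lower unadjusted p (edgeR interaction test, 0.00212) than ENSBTAG00000052585 (0.00215) and ENSBTAG00000039012 (0.00232). Its medians kept the same order, at 0.921 (pregnant) and 0.118 CPM (nonpregnant) at high P4, and 1.00 and 0.798 CPM at low P4. ENSBTAG00000021134 had median CPM of 30.5 (pregnant) and 39.2 (nonpregnant) at high P4, and of 38.0 (pregnant) and 33.2 (nonpregnant) at low P4. Its fold change differed by -0.64 ± 0.17 (log2, SE; edgeR adjusted p = 0.999). ENSBTAG00000018639 had median CPM of 87.0 (pregnant) and 93.1 (nonpregnant) at high P4, and of 94.6 (pregnant) and 83.8 (nonpregnant) at low P4, a difference of -0.60 ± 0.16 (log2, SE; edgeR adjusted p = 0.999). The opposite order was seen for ENSBTAG00000039012, with median CPM of 7.47 (pregnant) and 6.01 (nonpregnant) at high P4, and of 5.14 (pregnant) and 7.72 (nonpregnant) at low P4 (difference 0.92 ± 0.28, log2, SE; edgeR adjusted p = 0.999). ENSBTAG00000052585, a gene of low level, had median CPM of 1.45 (pregnant) and 0.396 (nonpregnant) at high P4, and of 0.835 (pregnant) and 1.66 (nonpregnant) at low P4 (difference 3.62 ± 1.11, log2, SE; edgeR adjusted p = 0.999).

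Since P4 itself differed between the outcomes, the genes that follow it were examined among the high P4 cows. Over all 43 cows the level of 78 of 15206 genes (0.513%) was associated with P4, 49 higher (0.322%) and 29 lower (0.191%) with more P4 (edgeR, block in the model, adjusted p under 0.05). None of the 78 passed in the outcome comparison among high P4 cows, where 0 of all 15531 genes tested passed. Of the 78, 0 had an unadjusted p under 0.05, beside 554 (3.57%) of all genes tested. Of the 49 genes higher with P4, 14 were higher and 35 lower in pregnant high P4 cows, with a median log2 fold change of -0.15. Among low P4 cows 45 of the 49 were higher and 4 lower in pregnant cows, with a median of 0.14. Of the 29 genes lower with P4, 21 were higher and 8 lower in pregnant high P4 cows (median 0.11). Among low P4 cows 5 of the 29 were higher and 24 lower in pregnant cows (median -0.09). Over all 15531 genes tested, 8088 were higher and 7443 lower in pregnant high P4 cows (median 0.01), and 7169 were higher and 8362 lower in pregnant low P4 cows (median -0.01).

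P4 itself was lower in pregnant than in nonpregnant cows of the high class and higher in pregnant than in nonpregnant cows of the low class. The 78 genes were chosen on the same cows, so their directions are a description. The interaction test called 0 of the 78, and 3 of the 78 had an unadjusted p under 0.05, beside 2.54% of all genes tested. With log2 P4 in the model the medians among high P4 cows were -0.09 for the 49 genes and 0.04 for the 29, beside 0.03 over all genes tested. Of the 49, 16 were then higher and 33 lower in pregnant cows, and of the 29, 16 were higher and 13 lower. Over all genes tested, 8412 were then higher and 7119 lower. In that fit 0 of 15531 genes differed between outcomes (0%; edgeR), with 625 (4.02%) at an unadjusted p under 0.05. Expression was related to P4 within the high class in 0 genes at equal outcome (0%; edgeR), with 653 (4.2%) at an unadjusted p under 0.05.

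**Figure D5:**
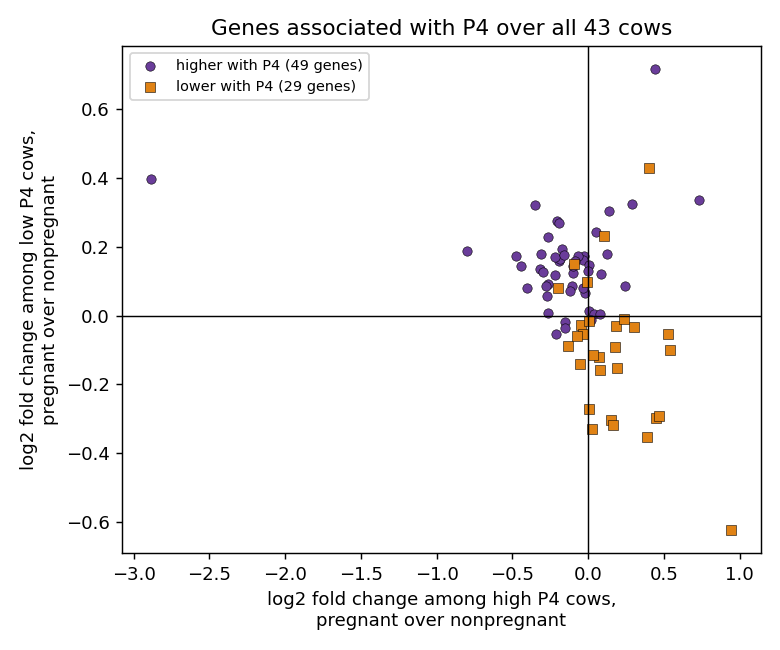
Log2 fold change of pregnant over nonpregnant cows among high P4 cows (horizontal) and among low P4 cows (vertical) for the 78 genes associated with P4 over all 43 cows. Of the 49 genes higher with P4 (circles), 35 lie left of 0 and 45 above 0, and of the 29 genes lower with P4 (squares), 21 lie right of 0 and 24 below 0.

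The gene of smallest adjusted p for P4, ENSBTAG00000016819, rose by 1.15 ± 0.17 (log2, SE) per doubling of P4 over all cows (edgeR adjusted p = 0.00034). On CPM scaled over all 43 libraries, it had among high P4 cows a lowest value of 4.65, a median of 20.8 and a highest of 75.3 CPM in pregnant cows, against 26.0, 51.0, 90.2, 11.6 and 21.97 CPM in nonpregnant replicates 1 to 5. The groups overlapped widely, at -0.26 ± 0.60 (log2, SE; edgeR adjusted p = 0.995) and of -0.03 ± 0.65 at equal P4. Nonpregnant cows of high P4 had a median of 26.0 CPM, above the medians of 8.97 and 6.91 CPM of pregnant and nonpregnant low P4 cows. The abundant ENSBTAG00000004256, also higher with P4, had a lowest value of 199.9, a median of 286 and a highest of 787 CPM in pregnant high P4 cows, against 348, 393, 521, 254 and 266 CPM in nonpregnant replicates 1 to 5 (log2 fold change 0.05 ± 0.31 SE; edgeR adjusted p = 0.997).

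Among genes lower with P4, ENSBTAG00000017365 had a lowest value of 50.8, a median of 70.4 and a highest of 99.98 CPM in pregnant high P4 cows, against 97.4, 61.4, 57.9, 73.4 and 45.7 CPM in nonpregnant replicates 1 to 5. Its log2 fold change was 0.18 ± 0.18 (SE; edgeR adjusted p = 0.995). ENSBTAG00000014555 had a lowest value of 0.0917, a median of 1.33 and a highest of 2.85 CPM in pregnant high P4 cows, against 0.820, 1.03, 0.697, 0.557 and 1.15 CPM in nonpregnant replicates 1 to 5. No high P4 cow of either outcome reached 3 CPM, while low P4 cows went up to 17.2 CPM (pregnant) and 14.1 CPM (nonpregnant), around medians of 1.29 and 1.17 CPM.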

How the data were processed

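The authors deposited unnormalized read counts per library for 27570 Ensembl bovine genes; the values are whole numbers. The submitters' processing notes name HTSeq, HISAT2, FastQC 0.11.7, Trim Galore 0.4.4 and the build ARS-UCD1.2. No label states strand or annotation settings, so overlapping or near-identical genes are uncertain. Genes were kept by edgeR's filterByExpr (minimum count 10, smallest group 5), scaled by TMM and tested with edgeR 4.0.16 (robust quasi-likelihood, R 4.3.3). For the association with P4 over all 43 cows the filter's groups were the outcomes, the smaller holding 18 cows. Each SE was obtained from the log2 fold change and its F statistic. Block 1, low P4 and reduced fits tested the genes kept for the 19 cows. Levels are CPM on TMM-scaled library sizes. Alternatives used DESeq2 1.42.0, limma 3.58.1 and sva 3.50.0 (4 surrogate variables). Exact permutation tests reassigned outcomes within blocks (1260 assignments). Scripts were tested on simulated data.

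Cows are independent animals. The P4 limit, gene lists and tests were chosen with earlier results of these data known. The rule for named genes took, per direction, the smallest p among genes with a mean log2 CPM (prior count 2) of at least 0, limited to 2 per direction and comparison for want of symbols. Gene lists and list covariates could not be run for the same reason.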

Additional observations from a re-analysis of the deposited data

Results flagged for a closer look

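A sample far from the others was looked for in 29 groups of 4 or 5 cows, covering library measures, components and named genes. In all 4 were found, where chance gives about 1 in 20 for independent groups of normally distributed values. The groups shared cows, and CPM was not put on a log scale. Nonpregnant replicate 4 had 9.27% of its counts in the 10 most abundant genes, where the other 4 nonpregnant cows had 4.61% to 5.50%. Nonpregnant replicate 5, the only one of block 2, scored 31.7 on the third component, where the other 4 lay between -15.7 and -4.19. ENSBTAG00000047121 reached 238 CPM in nonpregnant replicate 2, where the other nonpregnant cows lay between 0.116 and 16.3 CPM, both over the 5 cows and within block 1.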

How the results depend on the processing

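The outcome comparison among high P4 cows called 0 genes under 15 of 16 other settings and without each of the 19 cows. The exception was DESeq2, which called 1 gene among the 19 cows and 1 in block 1, ENSBTAG00000013055 in both. The filter kept that gene only through pregnant cows. The settings were tools, scaling, filters, covariates, P4 limits, the P4 range shared by both outcomes and all 43 cows in 1 fit. The number of genes with an unadjusted p under 0.05 ran from 419 to 1680 over the settings and from 293 to 1358 without 1 cow. The interaction called 0 genes under 7 settings and without each nonpregnant high P4 cow, with 506 to 1841 and 262 to 904 genes at an unadjusted p under 0.05. The log2 fold changes followed over these settings kept their sign. The second component's difference between outcomes changed sign on the 2000 most variable genes (0.894). Without 1 cow, differences ran from -211.5 to 81.7 for detected genes, -451070 to 1535120 for total counts, -0.00128 to 1.16 percentage points for the 10 most abundant genes, -0.0209 to 0.0306 for the scaling factor, -25.0 to 0.783 for the second component and -0.418 to 11.4 for the third, and none passed; the cause was not tested. Fits without 1 cow for library measures, components and the interaction, and without 3 libraries, were chosen after seeing the data.

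No paired analysis was possible because every animal gave a single library and its number is only a name. With 5 nonpregnant cows, 1 in block 2, intervals stayed wide for genes of low counts.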
